A study of Mus musculus with 2 samples.

Results

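This account concerns the cadherins and catenins measured in mouse rib chondrocytes, namely Cdh1, Cdh2, Cdh3, Cdh4, Cdh5, Cdh11, Cdh13, Ctnna1, Ctnnb1 and Ctnnd1. The genes were chosen by family from results of these same arrays, in which Cdh2, Cdh5 and Cdh11 had already stood out by their ratio of mutant to wild-type signal, so the ratios below are descriptions and none is tested. All 10 genes were matched, through 26 probe sets that the platform annotation ties to a single gene, out of 18193 genes and 45037 probe sets in all. RNA levels were read on an Affymetrix mouse genome array from chondrocytes freed with collagenase from the ribs of mice at 5 days of age. The study compared wild-type mice with mice carrying the V156D knock-in of Matn1, which encodes the cartilage matrix protein matrilin-1, with 1 array for each genotype. The design text gives 5 littermates of known genotype as the source and says that RNA was extracted after pooling. The labels and design text do not state strain, sex or whether the knock-in was homozygous.

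Cadherins are membrane proteins that bind calcium and join a cell to its neighbours by pairing with cadherins on the other cell. Inside the cell, the classical cadherins hold β-catenin and p120 catenin, and α-catenin ties β-catenin to actin. β-catenin also acts in the nucleus as the transcriptional partner of TCF and LEF factors in Wnt signalling. In the skeleton, N-cadherin and cadherin-11 are known from the condensation of mesenchyme before cartilage forms, after which N-cadherin declines as chondrocytes surround themselves with matrix.

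Signals are given below as probe set intensities on a linear scale, wild type first. Differences are given as fold or as log2 ratios of mutant over wild type. Unless called an intensity or a fold, list medians, means over probe sets and single values given for a gene or probe set are log2 ratios. Because each genotype was a single pool, no spread between animals was measured, no p-value or standard error exists, and pool and genotype cannot be told apart. A gene called higher was brighter on the mutant array than on the wild-type array, and a gene called lower was dimmer. Each gene is represented by its brightest probe set. A signal floor was placed at the median of the mean log2 signal over all probe sets, an intensity of 54.6, and 11329 genes had a mean signal at or above it. The arrays were alike in overall signal, with median intensities of 54.3 and 55.1. Levels of different genes are not compared, since probe sets differ in how brightly they report. A summed intensity given for a list therefore mostly follows its brightest genes.

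Among the 10 genes, 3 cadherins exceeded their wild-type signal at least 2-fold on the mutant array, 1 cadherin was lower by 2-fold or more, and the catenins were nearly level. The higher genes were Cdh2, Cdh11 and Cdh5, and the lower gene was Cdh1. Of the 8 members at or above the floor, 3 were at least 2-fold higher, whereas 0.653% of all genes at or above the floor were, and 0 were at least 2-fold lower, against 0.256% of all such genes. Cdh1 and Cdh4 lay below the floor, where 0.204% of 6864 genes were higher by 2-fold or more and 0.102% lower by as much. As the members were picked with these ratios in view, nothing is read from those shares. Over all 10 members the median log2 ratio was 0.10, with 7 above and 3 below 0, and over all genes it was -0.01. Of all genes 47.3% were above 0, and of those at or above the floor 44.8%. The median was 0.84 over the 7 cadherins and -0.09 over the 3 catenins.

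**Figure D1:**
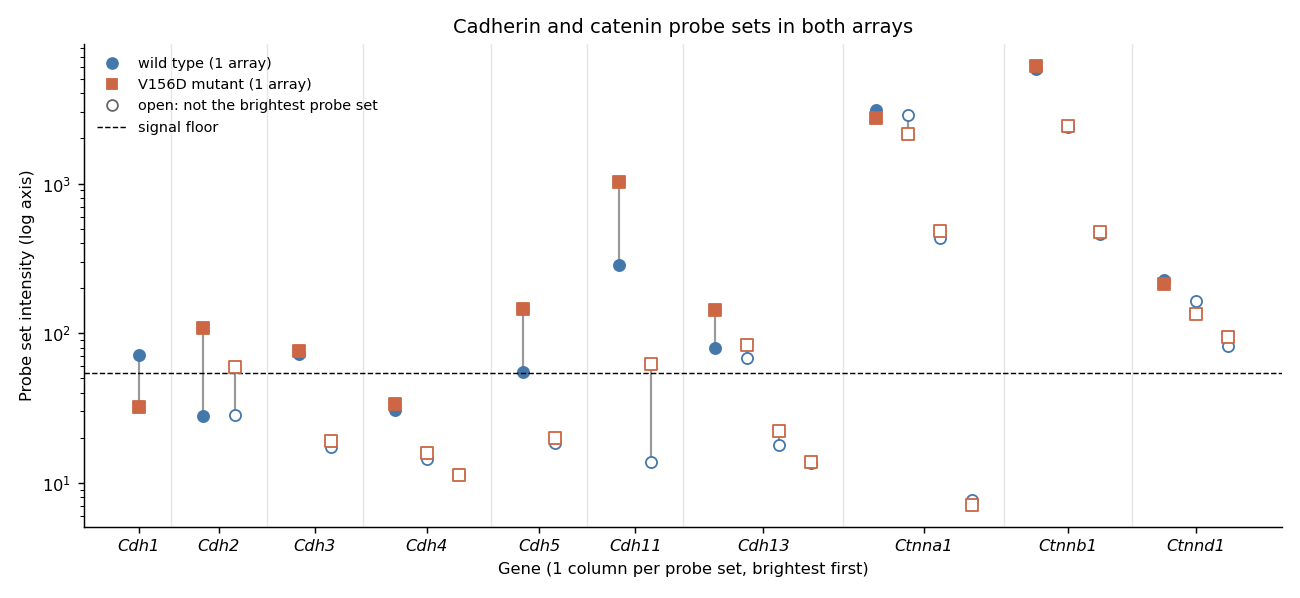
Intensity (log axis) of every cadherin and catenin probe set in the wild-type array (circles) and the V156D mutant array (squares), 1 column per probe set and 1 array per genotype, filled where the probe set is the brightest of its gene; the dashed line is the signal floor of 54.6. Long vertical gaps mark Cdh2, Cdh11 and the brighter Cdh5 probe set upward and Cdh1 downward, while the points of the catenins lie close together; heights of different probe sets are not comparable.

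Cdh2 encodes N-cadherin, a type I cadherin of neural, muscle and mesenchymal cells. Its brighter probe set had a wild-type intensity of 27.8 and a mutant intensity of 108, a 3.90-fold difference. Its other probe set had 28.4 and 59.4, in the same order, a log2 ratio of 1.06. Both probe sets thus passed 2-fold upward, and both had wild-type values below the floor. The mean log2 signal of the brighter probe set was 5.78 against a floor of 5.77, so the gene was counted only just above the floor. At a floor set at the 60th percentile it was not counted. Adding 32 to every intensity before log2, which shrinks ratios of dim probe sets, gave 2.35-fold. Among genes at or above the floor its log2 ratio of 1.96 ranked 2 from the top of 11329. Of the 74 genes at least 2-fold higher, 13, Cdh2 among them, had a wild-type intensity below the floor.

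Cdh11 encodes cadherin-11, a type II cadherin first known from osteoblasts and also made by fibroblasts and synovial lining cells. Its brighter probe set read 284 for wild type and 1016 for the mutant, 3.57-fold higher. The dimmer one read 13.7 and 62.0, a log2 ratio of 2.18. The log2 ratios of the 2 probe sets averaged 2.01 ± 0.24 (SD over probe sets of 1 gene, which share the same RNA and are not replicates). The brighter probe set was above the floor in both arrays. Across 6 other ways of processing the values, the ratio stayed between 3.31-fold and 4.02-fold, and the gene ranked 6 from the top at or above the floor.

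Cdh5 encodes VE-cadherin, the type II cadherin of endothelial junctions. Its brighter probe set read 55.1 for wild type, which is next to the floor, and 144 for the mutant, 2.62-fold higher. The second probe set had 18.4 and 19.8, a log2 ratio of 0.11, and lay below the floor in both arrays. The 2-fold difference therefore came from 1 probe set, and the mean over both was 1.68-fold. With the offset of 32 the brighter probe set alone was still above 2-fold, as seen in the plot of member ratios under other processing.

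Cdh13 encodes T-cadherin, which has no cytoplasmic tail, is held in the membrane by a lipid anchor, binds the hormone adiponectin and is made by endothelium and muscle among other tissues. Its brightest probe set read 79.6 for wild type and 143 for the mutant, 1.79-fold higher and short of the 2-fold threshold. The next had 67.8 and 82.9, a log2 ratio of 0.29, and the other 2, below the floor, had 0.31 and 0.03. All 4 probe sets were thus higher in the mutant array, by amounts that differed widely, with a mean log2 ratio of 0.37 ± 0.34 (SD over probe sets). Adipoq, which encodes adiponectin and was chosen for mention with its values known, had 11.2 and 11.6, below the floor in both arrays.

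The other type I cadherins gave 1 lower gene and a pair with little difference. Cdh1 encodes E-cadherin, the cadherin of epithelial junctions. Its only probe set read 71.0 for wild type and 31.99 for the mutant, 2.22-fold lower, so that only its wild-type value exceeded the floor. Its mean signal fell short of the floor, and of the 6864 genes below the floor 4 had a log2 ratio as low, Cdh1 included. With the offset of 32 the difference was 1.61-fold. Cdh3, which encodes P-cadherin and lies next to Cdh1 in the order of protein-coding genes of the RefSeq table for GRCm38.p6, had 72.2 and 76.1 with its brighter probe set and 17.3 and 19.1 with the other. The neighbouring genes therefore differed in this comparison, with log2 ratios of -1.15 for Cdh1 and 0.08 for Cdh3. Cdh4, which encodes R-cadherin of retina and brain, was below the floor with all 3 of its probe sets in both arrays, the brightest at 30.7 and 33.5.

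**Figure D2:**
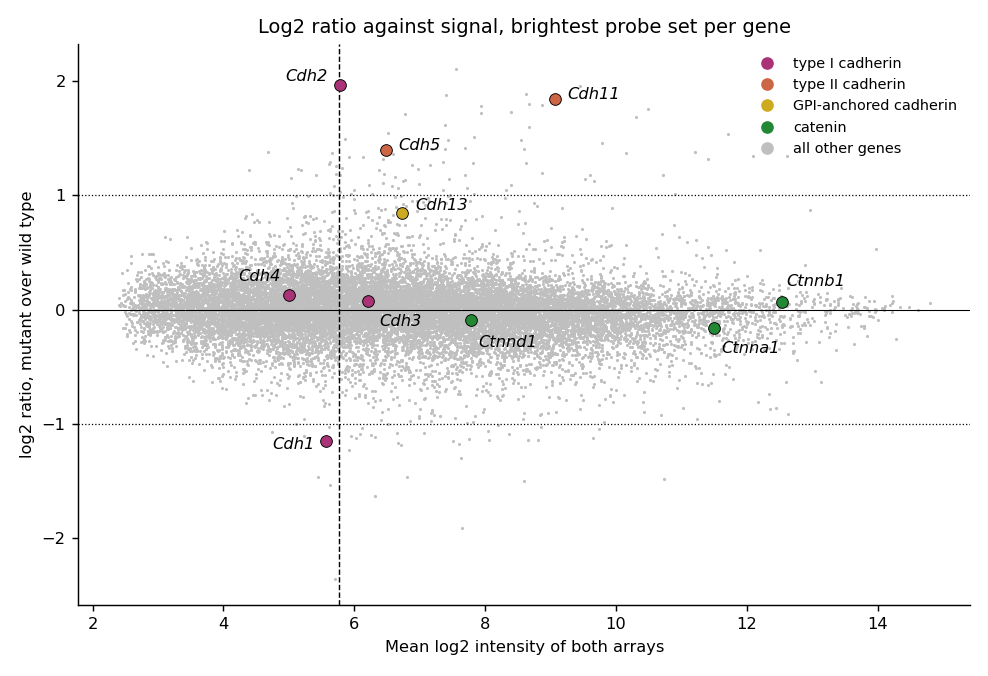
Log2 ratio of mutant over wild type against the mean log2 intensity of both arrays, for the brightest probe set of each gene; grey points are all 18193 genes, coloured points are the members by type, the dashed line is the signal floor and dotted lines mark 2-fold. Cdh11, Cdh2 and Cdh5 lie above the upper 2-fold line, Cdh1 lies below the lower line and to the left of the floor, and the catenins lie within the band of other genes near 0.

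The catenins differed little, and all 3 genes were above the floor in both arrays. Ctnnb1, which encodes β-catenin, read 5832 for wild type and 6107 for the mutant with its brightest probe set. Its other probe sets had 2401 and 2415, and 460 and 474, so that the 3 log2 ratios lay between 0.01 and 0.07. Ctnna1, which encodes αE-catenin, the link to actin, had 3078 and 2751. Its 4 probe sets ran from -0.41 to 0.16 on the log2 ratio scale, and the brightest gave -0.16. The lowest, -0.41, came from a probe set that may match several transcripts, and the dimmest, at 7.74 and 7.13, was near the bottom of the array's range. Ctnnd1, which encodes p120 catenin, the subunit that keeps cadherins at the cell surface, had 228 and 214. Its 3 probe sets had log2 ratios of -0.09, -0.30 and 0.19, so the probe sets disagreed on the direction. No catenin probe set differed 1.5-fold, while the central 95% of log2 ratios over genes at or above the floor ran from -0.55 to 0.49. By their brightest probe sets the catenins thus lay within that band, and Cdh2, Cdh5, Cdh11 and Cdh13 outside it. The other Cdh13 probe sets, at 0.29, 0.31 and 0.03, and the second Cdh5 probe set, at 0.11, lay within it. Because Cdh2, Cdh5 and Cdh11 had already stood out by these ratios when the family was chosen, their place outside the band was fixed in advance. Nothing is read from it, from their ranks or from the place of Cdh13, a member of the same chosen family.

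None of the relatives measured at or above the floor differed 2-fold by its brightest probe set. Of 16 other cadherins listed, 14 were measured, 2 lay at or above the floor and none differed 2-fold, with a median log2 ratio of -0.01 over the 14. The 2 were Cdh15, M-cadherin of muscle, at 0.06, and Cdh19, a cadherin of Schwann cell precursors, at -0.03. Among 8 other catenins and relatives, 5 were at or above the floor, 3 higher and 2 lower, with a median of 0.01 over all 8. Arvcf, a relative of p120 catenin, was highest at 0.27, and Ctnnal1, which encodes α-catulin, lowest at -0.37. Jup, which encodes plakoglobin and was picked once its values were known, had 89.5 and 101. Of 9 desmosome genes measured, 5 were at or above the floor, with 2 higher and 3 lower. Dsp, the desmoplakin that anchors keratin filaments, was lowest at -0.52, and Pkp3, a plakophilin, highest at 0.22. The protocadherins, Fat, Dachsous, Celsr and calsyntenin genes were mostly higher with their brightest probe sets, by less than 2-fold. Of 22 measured, 9 were at or above the floor, 8 of them higher, 0 by 2-fold, with a median of 0.15 over the 22. Of those at or above the floor, Pcdh18 was highest at 0.64, from 61.5 to 95.9, and Clstn3 lowest at -0.08. A dimmer Pcdh18 probe set, below the floor, gave 1.54, from 25.8 to 74.7, and the mean over its 3 probe sets was 0.94. Other dimmer probe sets below the floor, named after their values were seen, gave 1.15 for Pcdh19, 1.01 for Clstn2 and -0.31 for Pcdh9. Genes below the floor ran from -0.30 for Pcdh1 to 0.85 for Fat3.

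Partners that hold or regulate cadherins at the junction had ratios close to 0. Of 26 junction partners measured, 23 were at or above the floor, 11 higher and 12 lower, none by 2-fold, and the median over all 26 was 0.00. The medians near 0 given for the related adhesion and signalling lists had no settled sign, apart from those of the protocadherin group and the β-catenin targets, as each changed sign under at least 1 other way of processing. Nectin2, an immunoglobulin-like adhesion molecule, was highest at 0.80, from 44.6 to 77.8, but its 2 probe sets averaged 0.45. Vcl, which encodes vinculin, the actin-binding partner of α-catenin, was lowest at -0.39, from 3045 to 2316. Of 22 genes of cadherin cleavage, endocytosis and phosphorylation, 21 were at or above the floor, 8 higher and 13 lower, with a median of -0.05 over the 22. Adam10, the metalloprotease that sheds N- and E-cadherin, was highest at 0.63, but another of its probe sets at the floor gave -0.24 and the mean over 4 was 0.27. Src, a kinase of junction proteins, was lowest at -0.34.

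Transcription factors that regulate E-cadherin or mark mesenchyme were divided in direction. Of 14 measured, 12 were at or above the floor, 6 higher and 6 lower, with a median of -0.03 over the 14. Twist1, a factor of mesenchyme known to favour N-cadherin over E-cadherin, was highest at 0.71, with 62.7 and 103 on its single probe set. Grhl2, an epithelial factor that activates E-cadherin, was lowest at -0.36, from 64.2 to 50.1, but its 4 probe sets averaged -0.09. The next 4 genes are named after their values were seen. Snai2, which encodes Slug, had 6935 and 6286 with its brighter probe set and 2073 and 1399 with the other, a mean log2 ratio of -0.35. Snai1, which encodes Snail, had 92.8 and 100. Zeb2 had 51.4 and 62.4 with its brightest probe set, and its 5 probe sets, all higher but the rest below the floor, averaged 0.61. Prrx1 had 201 and 276 with its brightest, and its 6 probe sets, all higher, averaged 0.43.

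The β-catenin degradation complex and its nuclear partners were level as well. Of 14 measured, 13 were at or above the floor, 7 higher and 6 lower, with a median of 0.02 over the 14. Bcl9l, a nuclear co-activator, was highest at 0.33, and its relative Bcl9 lowest at -0.48. The 3 Bcl9l probe sets differed in sign and averaged 0.07, and the 2 of Bcl9 averaged -0.28. Among 12 β-catenin target genes measured, 9 were at or above the floor, 6 higher and 3 lower, with a median of 0.10 over the 12. Lgr5, a receptor for R-spondins, was the only target at least 2-fold higher, from 44.4 to 91.6, and its other probe set gave -0.15. Axin2, a feedback target named after its values were seen, had 58.2 and 53.1.

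Genes of mesenchymal condensation, the step in which N-cadherin is known to act, were divided. All 13 were at or above the floor, 8 higher and 5 lower, with a median of 0.06. Tnc, which encodes the matrix protein tenascin-C, was 2.18-fold higher, from 549 to 1198, by its brightest probe set, but its other probe set gave -0.07. None of the other genes of this list differed 2-fold by its brightest probe set. A dimmer probe set at or above the floor did for a pair of them, which are named for that reason: Cd44, a hyaluronan receptor, had 2124 and 1058 there and 1897 and 1272 with its brightest, and Vcan, the proteoglycan versican, had 54.5 and 116 there and 102 and 197 with its brightest. Ncam1, an adhesion molecule of condensing mesenchyme, had 278 and 327 and is named after its values were seen.

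**Figure D3:**
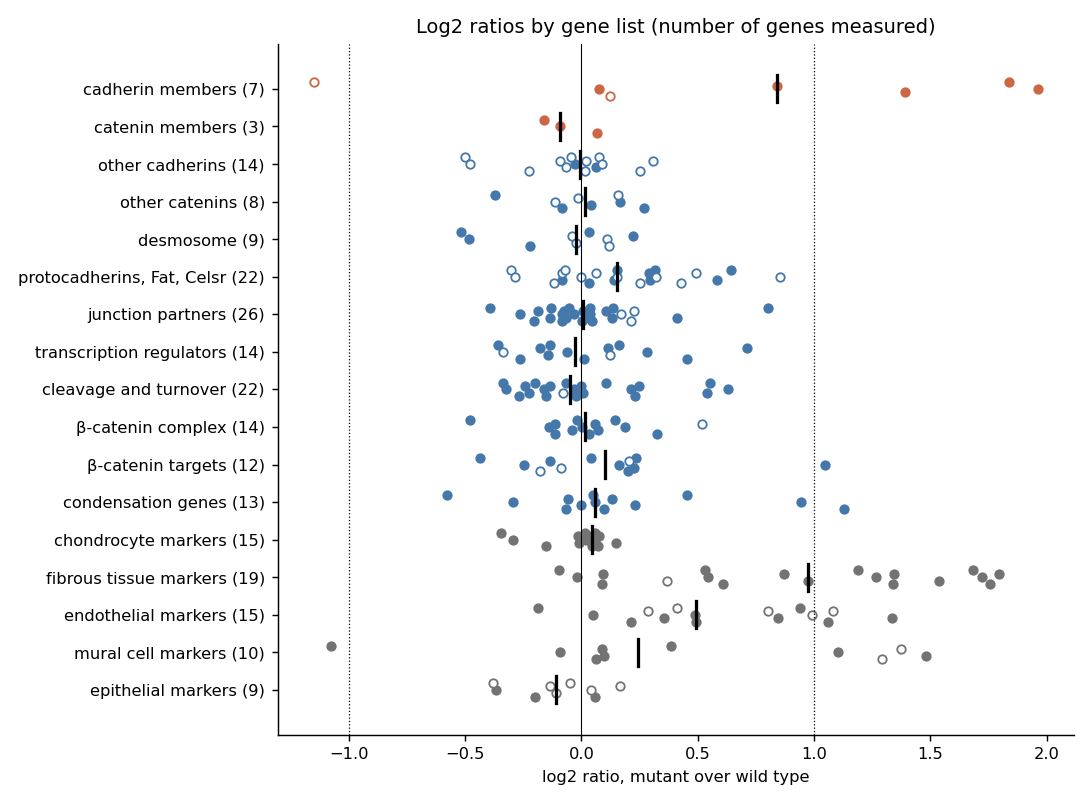
Log2 ratio of mutant over wild type for each gene of the cadherin and catenin members (orange), related gene lists (blue) and cell type markers (grey); filled points are genes at or above the signal floor, open points genes below it, black bars are list medians over all points and dotted lines mark 2-fold. The cadherin members spread from -1.15 to 1.96, whereas the junction, β-catenin and other cadherin lists centre near 0 and the fibrous tissue and endothelial markers lie mostly to the right.

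Markers of some other cell types differed between the arrays, and those of others were nearly level. In bulk RNA a larger share of a cell type and more RNA per cell cannot be told apart. Markers of fibroblasts, perichondrium and tendon, tissues in which Cdh11 and Cdh2 are known to be made, were higher for 16 of 18 genes at or above the floor, 9 of them at least 2-fold. The median over 19 measured was 0.97. Their summed intensity was 71485 for wild type and 103020 for the mutant. Kera, the keratocan of tendon, was highest at 1.79, and Pdgfra lowest at -0.10. The bright genes Fmod at -0.02, Lum at 0.09 and Dcn at 0.09, named after their values were seen, were nearly level. On the wild-type array 2 of these 19 markers were below the floor. The part of such cells in the Cdh2 and Cdh11 values was not tested.

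Endothelial markers, the setting in which Cdh5 is known, were higher for 9 of 10 genes at or above the floor, 2 of them at least 2-fold, with a median of 0.49 over 15 measured. Their summed intensity was 1393 and 1881. Emcn, which encodes endomucin, was highest at 1.34, from 38.2 to 96.4, and Egfl7 lowest at -0.19. The other Egfl7 probe sets at or above the floor gave 0.16 and 0.38, and the mean over its 4 was 0.06. Of the 15, 7 had wild-type values below the floor and 2 had mutant values below it. The defining genes Pecam1 and Tek were picked for mention once their values were known, Pecam1 with 35.3 and 74.8 and Tek with 27.7 and 55.1. Mural cell and smooth muscle markers were higher for 6 of 8 genes at or above the floor. The median was 0.09 over those 8 and 0.24 over 10 measured, and the summed intensity 5313 and 6051. Rgs5, a gene of pericytes, was 2.79-fold higher, and Cnn1, a calponin of smooth muscle, 2.11-fold lower. The part of vessel cells in the Cdh5 and Cdh13 values was not tested.

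Epithelial markers stood beside Cdh1. Of 9 measured, 3 were at or above the floor, 1 higher and 2 lower, with a median of -0.11 over the 9, and 6 were below the floor in both arrays. The summed intensity was 1272 and 1069, most of it from Epcam. Epcam was lowest at -0.37, from 773 to 598, and Cldn3 highest at 0.06. The part of epithelial cells in the Cdh1 value was not tested. Osteoblast markers, relevant to Cdh11, were represented by 5 genes, of which 2 were at or above the floor, Sp7 at 0.09 and Alpl at 0.24. The median over the 5 was 0.25 and the summed intensity 207 and 254. The rest, below the floor, are named after their values were seen. Phex gave 1.22 with its brighter probe set and -0.14 with the other. Ibsp gave 0.25 with its brighter probe set and 1.93, from 8.98 to 34.3, with the other. Dmp1 gave 0.40 with its brightest. Skeletal muscle markers, relevant to Cdh15, Cdh2 and Cdh13, were lower for 5 of 6 genes at or above the floor, with a median of -0.17 over 10 and a summed intensity of 2743 and 2110. Most of that sum came from Tnnt3, at 1930 and 1388, named after its values were seen. Myod1 was lowest at -0.74 and Des highest at 0.45.

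Markers of the labelled cell type were bright in both arrays, and their median was nearly level. All 15 chondrocyte markers were above the floor, 10 higher and 5 lower, with a median of 0.04 and a summed intensity of 178560 and 181107. Col11a2 was highest at 0.15 and Col9a2 lowest at -0.35. Col2a1, named after its values were seen, had 27997 and 29057, the highest value on each array. Whether ratios are compressed near the top of the range was not tested. Heat shock genes differed between the preparations. The mutant value was the lower for 13 of 13 heat shock genes, with a median of -0.73, and Dnaja4 and Hspb8 were lower by 2-fold or more. Immediate early genes, known to be induced when tissue is digested, were lower for 13 of 15, with a median of -0.07, from Egr2 at -0.50 to Jund at 0.20. That median was close to the one of all genes at or above the floor, -0.02, of which 6231 of 11329 were lower. The part of the heat shock and immediate early genes in the cadherin values was not tested.

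**Figure D4:**
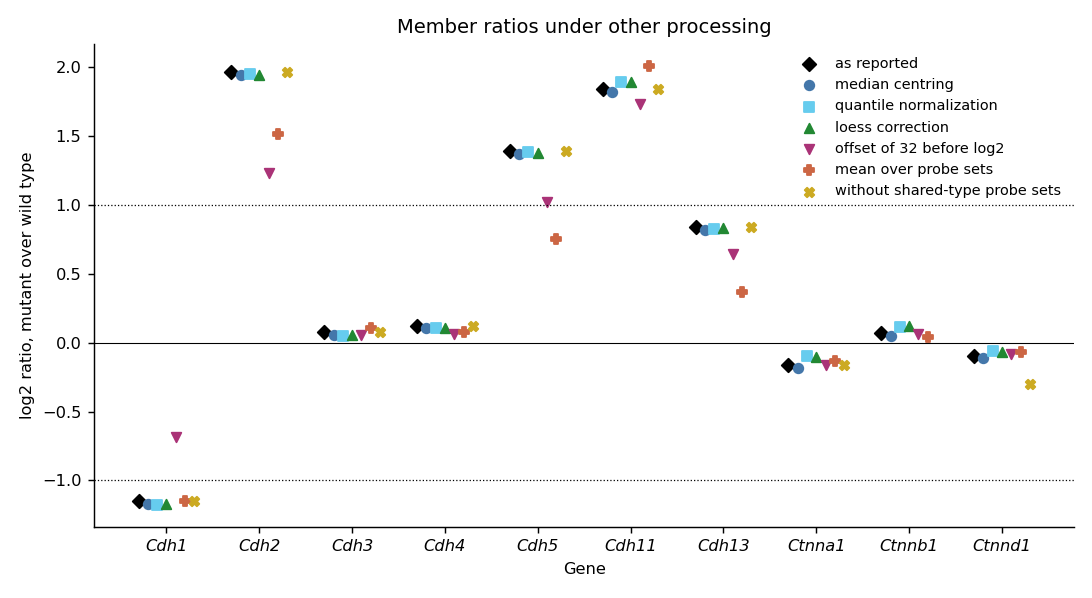
Log2 ratio of mutant over wild type for each member as reported (black diamonds) and under 6 alternatives: 3 scalings of the arrays, an offset of 32, averaging each gene's probe sets, and leaving out probe sets whose names mark possible matches to several transcripts. Dotted lines mark 2-fold. Every member kept its sign under the alternatives that gave it a value, Cdh11 stayed between 1.73 and 2.01, and the offset or the mean over probe sets brought Cdh1, Cdh2, Cdh5 and Cdh13 closer to 0; Ctnnb1 has no point in the last setting because all of its probe sets carry such names.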

How the data were processed

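The authors deposited 1 intensity, not on a log scale, for each of 45037 probe sets on each of 2 arrays. MAS5 is named in the submitters' processing notes; settings, scaling and background step: not given in the sources used here. Gene names came from the platform annotation held by GEO and were brought up to date by Entrez number in RefSeq's gene table for GRCm38.p6 (34741 of 34945 probe sets with 1 symbol were found). A further 932 probe sets with several symbols and 9160 unnamed here were left out. The log2 of each deposited intensity was used unscaled. Each gene took the value of its brightest probe set by mean log2 signal, and genes were counted when at or above the 50th percentile of mean log2 signal and at least 2-fold different. With 1 array per genotype there was no test, and the number of arrays limits the precision.

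The members and all 23 gene lists (12 on adhesion, signalling and stress, 11 of cell type markers; 289 of 306 entries matched) were chosen with earlier results of these data known. Named list genes were those at least 2-fold different, otherwise the highest and lowest at or above the floor; for marker lists, the highest and lowest. Others are stated as named after their values were seen. Alternatives were median centring, quantile normalization, loess (span 0.3), an offset of 32, the mean over probe sets, a floor at the 40th percentile, at the 60th or no floor, leaving out names ending in _s_at, _x_at or _a_at, and 1.5-fold or 3-fold thresholds. The scripts were tested on simulated data. Python 3.11.15, numpy 2.4.6, pandas 2.3.3 and statsmodels 0.14.6 were used.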

Additional observations from a re-analysis of the deposited data

How the results depend on the processing

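The count of members at least 2-fold higher was 3 as reported (Cdh2, Cdh5 and Cdh11) and 1 (Cdh11) when a gene's probe sets were averaged, since Cdh2, at 2.86-fold, then lay below the floor and Cdh5 was at 1.68-fold. The count at least 2-fold lower was 0 as reported and 1 (Cdh1) with the floor at the 40th percentile or with no floor. Among all genes, 74 were higher and 29 lower as reported, 45 and 13 with the offset of 32, 193 and 229 at 1.5-fold, and 16 and 2 at 3-fold. Of 59 other values of the members' log2 ratios, 57 moved by less than 1.5-fold, and the 2 that moved more were Cdh2 with the offset (1.23) and Cdh5 averaged over probe sets (0.75). None changed sign. No list median moved by 1.5-fold under any of the 6 alternatives run on it, but 10 medians, reported between -0.05 and 0.15, changed sign under at least 1 of them. No paired analysis was possible because each genotype has a single array. Cdh1, Cdh2, Cdh4 and Cdh5 are limited by signal: each had a value below or next to the floor in at least 1 array. Cdh3 also fell below a floor at the 60th percentile, and Cdh3 and Cdh13 fell below the floor when probe sets were averaged.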

Other observations

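The marker lists not yet described gave mixed values. Of 10 macrophage and leukocyte markers, 4 were at or above the floor, 2 higher and 2 lower, from Cd14 at -0.34 to Csf1r at 0.17, and the median over the 10 was 0.04. The leukocyte marker Ptprc, named after its values were seen, was below the floor in both arrays. Of 6 Schwann cell and neural markers measured, 5 were higher by their brightest probe sets, from Cdh19 at -0.03 to Mbp at 0.21, with a median of 0.15. With probe sets averaged that median was -0.04, and the 8 Mbp probe sets averaged -0.05. Of 4 erythroid markers, 1 was at or above the floor, Alas2 at 0.31, and the median was 0.02. The Schwann cell and erythroid medians each changed sign under at least 1 other way of processing. Of 4 adipocyte markers measured, 2 were at or above the floor, Lpl, which encodes lipoprotein lipase, at 1.28 and Fabp4, a fatty acid carrier also made by endothelium, at 0.70, and the median was 0.37.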
